A study of Mus musculus with 5 samples.

Results

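Aquaporins are small membrane proteins that let water cross cell membranes along osmotic gradients. A subgroup, the aquaglyceroporins, also passes glycerol. In epithelia the channels sit in the apical or the basolateral membrane, and in the colon they are known for the recovery of water from the gut contents. The description covers 7 aquaporin genes, Aqp1, Aqp3, Aqp4, Aqp5, Aqp7, Aqp8 and Aqp9, of the 12393 genes that could be named on the array. They were chosen as the listed members of the family, and each was represented by the brightest of the probe sets annotated to that gene alone. All 7 were measured, by 12 of 22626 probe sets. One probe set each covered Aqp1, Aqp5 and Aqp8, 2 probe sets each covered Aqp4, Aqp7 and Aqp9, and 3 covered Aqp3.

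The samples were mixtures of a pair of RNA pools from C57BL/6 mice, with no genetic change or treatment given in the labels. The first pool was made from colons of mice aged 8 weeks and the second from entire pups aged 1 day, each from several animals. Colon RNA was 0%, 25%, 50%, 75% or 100% of the mix, and 10 ng of each mix was amplified and hybridised to 1 Affymetrix MOE430 array. The pools differed in both tissue and age, which cannot be told apart, and each pool was a single RNA, so no value below carries the spread between mice. In such bulk RNA, fewer cells of a type and less RNA per cell cannot be told apart either.

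The deposited values are log2 signals, and array medians lay between 6.83 and 6.92. Low signals were judged by 21 probe sets for bacterial poly-A control transcripts, those named DapX, LysX, PheX or r2-Bs. Their array medians were between 3.20 and 3.46 and marked the low end of the scale. Below, these are called the poly-A controls. Hybridisation controls were brighter on the 25% array, at a median of 9.94, than on the other arrays, at 9.02 to 9.35. All 10 markers of surface colonocytes were higher in colon, at 6.92 to 13.92, than in whole mouse, at 4.98 to 11.40. The 8 muscle fibre markers were lower in colon, with a median of 5.82 against 12.96 in whole mouse, which goes with the labels.

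Aqp8 and Aqp4, both known from colon epithelium, had by far the widest span of signals and were higher in colon. The other 5 aquaporins were lower in colon, among them Aqp3, which is also known from colon epithelium. Of these 5 genes, 4 (Aqp5, Aqp9, Aqp3 and Aqp7) fell with rising colon share at a limma adjusted p of at most 0.05. Here a gene "rose" or "fell" when the slope of its log2 signal on colon share passed that threshold over all 22626 probe sets. Of all probe sets, 10.9% fell and 8.63% rose, and of all genes by their brightest probe set, 14.5% fell and 9.8% rose. The shares by gene are the background for each count of list genes below. By brightest probe set, 4 of the 7 aquaporins fell and none rose. Aqp8 and Aqp4 did not pass (limma adjusted p = 0.0871 and 0.0652). The median slope of the 7 genes was −1.04 log2, beside −0.01 over all genes. The slopes had 3 residual degrees of freedom, and any bend away from a straight line counted as spread. Genes with a wide difference between the pools could thus miss the threshold, and counts past it do not measure size. Between the undiluted arrays, 6 of the 7 genes were at least 2-fold apart. Of all probe sets, 16.0% were, a share counted by probe set and not by gene.

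**Figure D1:**
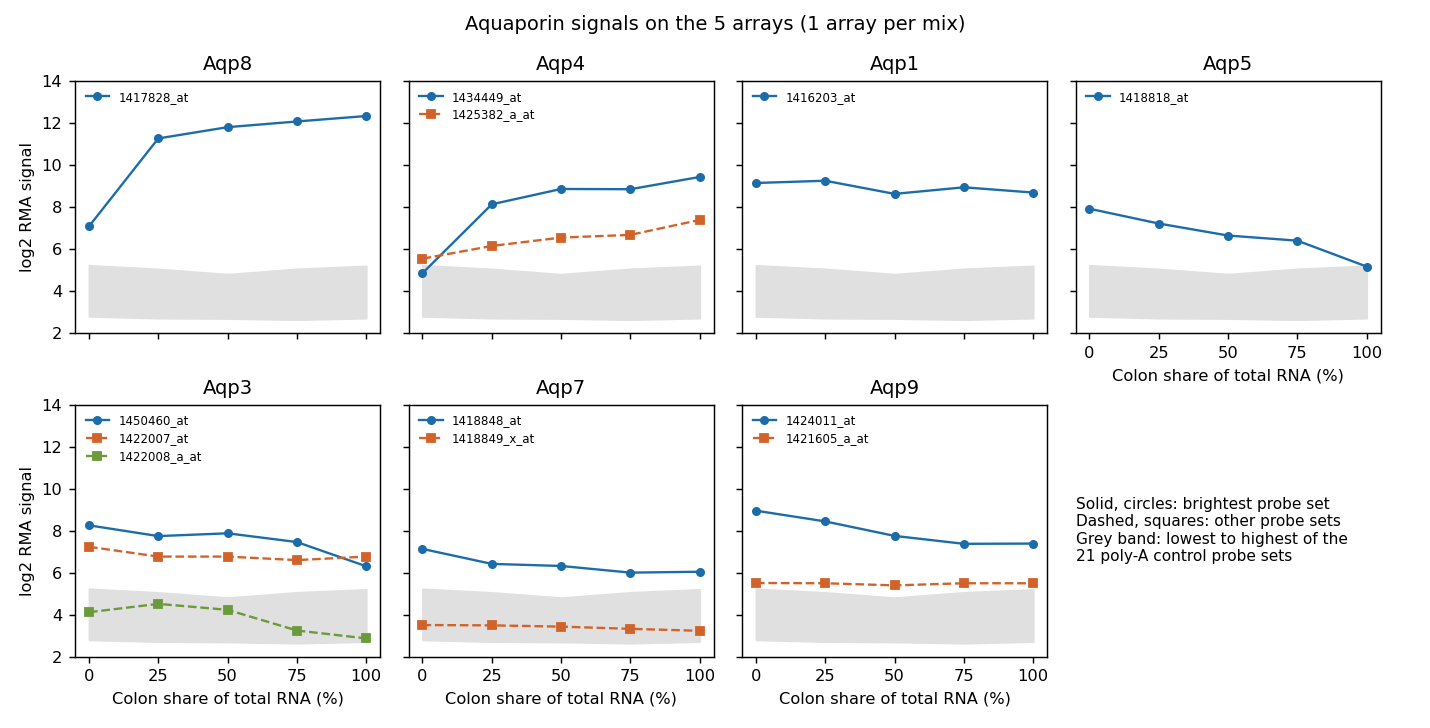
The log2 RMA signal of each aquaporin probe set (vertical axis) is plotted against the colon share of total RNA in percent (horizontal axis), with 1 point per array. Aqp8 was at 12.34 in colon and at least 11.27 in every mixture, while Aqp5 ended at 5.17 in colon, inside the grey band of the poly-A controls.

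Aqp8 is a water channel of the surface epithelium of the colon and of several glands. Its signals were 7.09 at 0% colon, 11.27 at 25%, 11.81 at 50%, 12.08 at 75% and 12.34 at 100%. All 5 values were in strict order, as in 16.4% of all probe sets in either direction, and most of the span lay in the first step of 4.18 log2. The last step, from 75% to 100% colon, was 0.26 log2, and without a replicate array such a step has no error of its own. Colon exceeded whole mouse by 5.25 log2, or 38.1-fold, on single arrays. Of all probe sets, 93 (0.411%) were at least 16-fold higher in colon, and Aqp8 and the brightest Aqp4 probe set were among them.

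The straight-line slope of Aqp8 on the log2 scale was 4.52 (SE 1.41, limma adjusted p = 0.0871), short of the threshold. Its residual standard deviation was 1.43 log2, beside a median of 0.14 over all probe sets. On the linear intensity scale, on which mixing 2 RNAs is additive, the limma slope of Aqp8 was 152% of its mean intensity (adjusted p = 0.00648). Unlike the log2 fit, this fit also let the prior variance follow mean intensity, so more than the scale changed. In that fit 2 of the 7 genes, Aqp8 and Aqp4, rose and 3, Aqp5, Aqp3 and Aqp9, fell. Counted by probe set and not by gene, 11.2% rose and 11.2% fell. Without the whole mouse array the log2 slope of Aqp8 was 1.39 (limma adjusted p = 0.0414), and without the colon array it was 6.20 (limma adjusted p = 0.166). The sign was the same in every fit made.

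The stretch before the annotated start of Aqp8 is shown beside that of Aqp5, the aquaporin with the largest fall, since these genes lay at opposite ends of the family. Each is the 250 bases upstream of the start in RefSeq, assembly GRCm38.p6, given 5′ to 3′. The Aqp8 window is chr7:123462044-123462293 on the plus strand and the Aqp5 window is chr15:99590778-99591027 on the plus strand. Capitals mark matches, on either strand, to 4 motifs chosen after the sequences were seen, the E-box CACGTG, the TATA box TATAAA, the GC box GGGCGG and the Cdx-type site TTTATTG.
Aqp8: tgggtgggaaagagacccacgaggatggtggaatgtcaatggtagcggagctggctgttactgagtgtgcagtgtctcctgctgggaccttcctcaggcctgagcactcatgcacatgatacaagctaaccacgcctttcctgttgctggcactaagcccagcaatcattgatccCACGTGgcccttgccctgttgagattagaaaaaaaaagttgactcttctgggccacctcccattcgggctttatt
Aqp5: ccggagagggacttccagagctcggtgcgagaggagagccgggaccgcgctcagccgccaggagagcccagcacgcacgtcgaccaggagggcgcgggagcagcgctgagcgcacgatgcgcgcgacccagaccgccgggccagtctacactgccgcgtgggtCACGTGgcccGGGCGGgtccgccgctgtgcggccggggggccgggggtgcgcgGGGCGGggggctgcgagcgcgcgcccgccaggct

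Both windows held the E-box letters CACGTG, 75 bases before the start in Aqp8 and 87 bases before it in Aqp5, and 6.02% of 32851 promoter windows of this length did. Aqp5 also held 2 matches to the GC box, present in 32.7% of windows. These matches did not overlap, and neither window held TATAAA (12.4% of windows) or TTTATTG (4.20%). The Aqp5 window was 78.4% G and C with 38 CpG dinucleotides, as many or more than 98.4% of windows. The Aqp8 window was 52.4% G and C with 5 CpG dinucleotides, beside a median of 6 over all windows. These are descriptions of letters, and no factor's binding was measured.

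Aqp4 is the water channel of astrocyte end-feet and of fast muscle fibres, and in mice it is also known from the basolateral membrane of colon surface cells. Its brightest probe set had signals of 4.86 at 0% colon, 8.14 at 25%, 8.87 at 50%, 8.85 at 75% and 9.44 at 100%. The mixtures and the colon array all lay above the whole mouse array, and the 50% and 75% mixtures differed by 0.01 log2. The whole mouse value lay within the range of the poly-A controls on that array, 2.80 to 5.23, so the size of the difference is inexact. Colon exceeded whole mouse by 4.58 log2, or 23.9-fold.

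The slope of that probe set was 3.95 log2 (SE 1.09, limma adjusted p = 0.0652). On the linear intensity scale, with the prior variance following mean intensity, it was 156% of the mean intensity (limma adjusted p = 0.00706). With each array centred on its median the slope was 4.03 log2 (limma adjusted p = 0.0385). Without the whole mouse array the slope was 1.56 log2 (limma adjusted p = 0.0727). The second Aqp4 probe set had 5.55 at 0% colon, 6.15 at 25%, 6.55 at 50%, 6.68 at 75% and 7.39 at 100%. It was in strict order and rose by 1.69 log2 (SE 0.18, limma adjusted p = 0.00796). Both Aqp4 probe sets were thus higher in colon, by 4.58 and 1.84 log2 on the undiluted arrays.

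**Figure D2:**
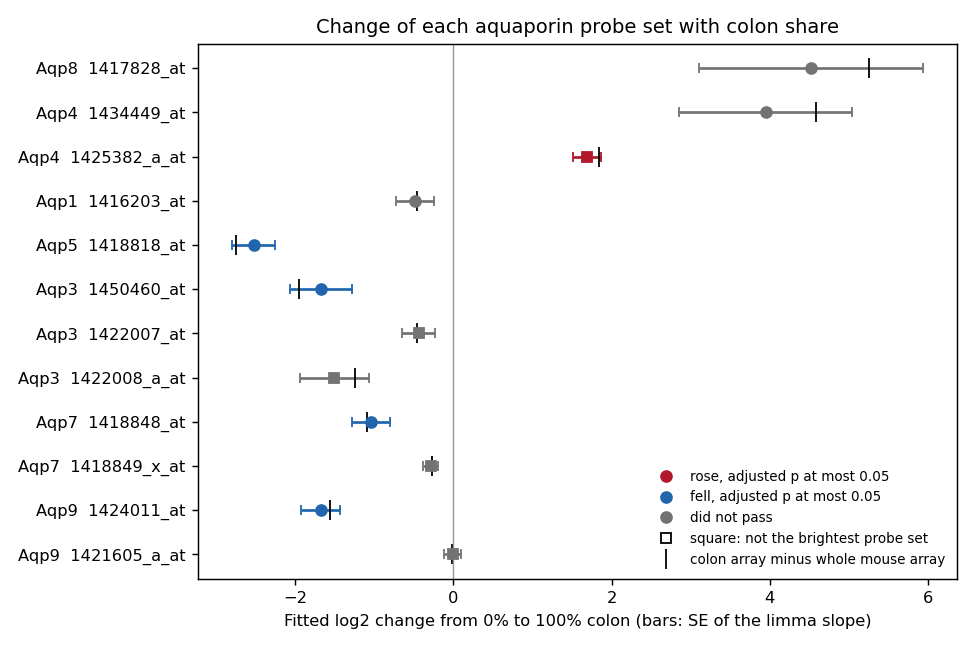
The fitted log2 change from 0% to 100% colon (horizontal axis, bars are the SE of the limma slope) is shown for each of the 12 aquaporin probe sets, with the difference between the undiluted arrays as a black tick. Of the 12, 1 rose, 4 fell and 7 did not pass, and Aqp8 at 4.52 had the widest error (SE 1.41).

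Aqp5 is the apical water channel of salivary and lacrimal acini and of flat cells of the lung alveolus. Its signals were 7.93 at 0% colon, 7.22 at 25%, 6.65 at 50%, 6.41 at 75% and 5.17 at 100%, in strict order. Colon minus whole mouse was −2.75 log2, a 6.73-fold lower intensity in colon. The colon value lay within the poly-A controls of its array, 2.72 to 5.21, and leaves the size inexact. The slope was −2.53 log2 (SE 0.27, limma adjusted p = 0.00791). With any 1 array removed it passed in 4 of 5 fits, the exception being the one without the whole mouse array (−2.55 log2, limma adjusted p = 0.0589).

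Of 7 alveolar markers, all were lower in colon, and 4 fell and none rose, with a median of 6.03 in colon and 8.43 in whole mouse and a median slope of −2.16. Sftpd, a surfactant collectin, fell by 2.72 log2, while Pdpn did not pass (slope −0.57 log2, limma adjusted p = 0.186). Of 6 markers of salivary and lacrimal acini, 4 were lower in colon and 2 were higher. Lpo had 8.70 in colon and 8.03 in whole mouse, and Bhlha15 had 7.25 in colon and 7.16 in whole mouse. Of these 6, 3 fell and none rose, with a median of 4.93 in colon and 7.19 in whole mouse. Their part in the fall of Aqp5 was not tested.

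Aqp3 is an aquaglyceroporin of basal keratinocytes, and it is also known from the basolateral membrane of colon and kidney epithelium. Its brightest probe set had signals of 8.25 at 0% colon, 7.74 at 25%, 7.87 at 50%, 7.46 at 75% and 6.31 at 100%. The first 4 arrays lay between 7.46 and 8.25, and the step from the 75% mixture to colon was −1.15 log2. Colon minus whole mouse was −1.95 log2. The slope was −1.67 log2 (SE 0.39, limma adjusted p = 0.0443). It missed the threshold without any 1 of the arrays (limma adjusted p from 0.079 to 0.163), and without the colon array it was −0.90 log2.

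The other Aqp3 probe sets, all made from the same transcript record, had a smaller slope or lay at the low end of the scale. One had 7.23 at 0% colon and between 6.60 and 6.77 on the other arrays, with a slope of −0.44 log2 (limma adjusted p = 0.215). The third, at 4.12, 4.52, 4.23, 3.25 and 2.87 from 0% to 100% colon, lay within the poly-A controls on all arrays and had a slope of −1.50 log2 (limma adjusted p = 0.0713). All 3 were lower in colon than in whole mouse. Of 7 epidermal markers, 4 fell and none rose, with a median of 5.29 in colon and 12.00 in whole mouse, and their part in the fall of Aqp3 was not tested.

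Aqp7 is the aquaglyceroporin through which fat cells release glycerol. Its signals were 7.13 at 0% colon, 6.42 at 25%, 6.32 at 50%, 6.00 at 75% and 6.05 at 100%. The whole mouse array stood above the other 4, and the first step of −0.71 log2 was more than the remaining steps together. Colon minus whole mouse was −1.09 log2. The slope was −1.04 log2 (SE 0.24, limma adjusted p = 0.044), and it missed the threshold without any 1 of the arrays (limma adjusted p from 0.0543 to 0.129). Without the whole mouse array it was −0.58 log2. On the linear intensity scale Aqp7 also missed it (limma adjusted p = 0.0568). Its second probe set, of a type open to cross-hybridisation, lay within the poly-A controls at 3.51 to 3.24, and did not pass (−0.29 log2, limma adjusted p = 0.103).

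Aqp9 is the aquaglyceroporin through which hepatocytes take up glycerol. Its signals were 8.95 at 0% colon, 8.44 at 25%, 7.75 at 50%, 7.37 at 75% and 7.38 at 100%. Signals were lower at each share up to 75% and the last 2 arrays differed by 0.01 log2. Colon minus whole mouse was −1.57 log2. The slope was −1.68 log2 (SE 0.25, limma adjusted p = 0.016). It missed the threshold without the whole mouse array (0.0972), the 25% mixture (0.0514) or the 75% mixture (0.0616), all limma adjusted p.

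The second Aqp9 probe set stayed between 5.40 and 5.51 on all arrays (slope −0.01 log2, limma adjusted p = 0.964). Its signal was tied between arrays, with 3 distinct values among 5. The fall of Aqp9 thus rested on 1 of its 2 probe sets. Markers of hepatocytes were lower in colon in 6 of 7 genes, with a median of 6.48 in colon and 12.94 in whole mouse. Among them 2 fell and none rose at the threshold, with a median slope of −6.05. Apoa1 and Alb, lower in colon by 8.20 and 7.22 log2, were among those that did not pass. The part of these markers in the fall of Aqp9 was not tested.

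Aqp1 is the water channel of red cells, capillary endothelium and the proximal tubule of the kidney. Its signals were 9.15 at 0% colon, 9.26 at 25%, 8.63 at 50%, 8.94 at 75% and 8.70 at 100%, with no steady order. The whole span was 0.62 log2 and its residual standard deviation was 0.22. Colon minus whole mouse was −0.46 log2, and the slope of −0.49 log2 did not pass (SE 0.24, limma adjusted p = 0.231). It was between −0.56 and −0.38 log2 when any 1 array was left out. Aqp1 was the narrowest of the 7 genes by brightest probe set.

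Of 5 erythroid markers, 4 fell and none rose, with a median slope of −2.92 and medians of 5.88 in colon and 7.91 in whole mouse. Of 8 endothelial markers, 4 fell and none rose, with a median slope of −0.88 and medians of 6.32 in colon and 7.33 in whole mouse. Of 8 kidney tubule markers, 4 fell and none rose, with a median slope of −0.82. The slope of Aqp1 was nearer to 0 than the median of each of these lists, and the difference was not tested.

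How the mixtures followed the undiluted RNAs was described on the linear intensity scale, against the weighted mean of the colon and whole mouse intensities. Aqp8 lay 0.82 log2 above linear mixing at 25% colon, 0.43 above it at 50% and 0.14 above it at 75%. The 93 probe sets at least 16-fold higher in colon had median deviations of 0.84, 0.51 and 0.21 log2 at these shares. Read as a colon share, Aqp8 gave 46.3%, 68.4% and 83.0%, beside medians of 47.1%, 73.0% and 87.0% for that group. Each deviation and each share of Aqp8 lay a little below the median of that group.

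The deviations of Aqp4 were 0.53 and 0.37 log2 at 25% and 50% colon and −0.19 at 75%. Its brightest probe set was also among the 93 at least 16-fold higher in colon, and each deviation lay below their median. The whole mouse value at the low end of its mixing line lay within the poly-A controls. Among the aquaporins that fell, Aqp9 lay below linear mixing in all 3 mixtures, by −0.25, −0.62 and −0.59 log2 in order of share. Aqp7 did too, with deviations of −0.51, −0.37 and −0.40, and so did Aqp5, with −0.36, −0.47 and −0.05. The 1763 probe sets at least 2-fold lower in colon had median deviations of −0.15, −0.22 and −0.14 log2. Aqp3 was below linear mixing at 25% (−0.22 log2) and above it at 50% and 75% (0.29 and 0.37). The mixtures of Aqp9 and Aqp7 at 75% colon read as 100.4% and 102.5% colon, so that their last 2 arrays carried no further fall.

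**Figure D3:**
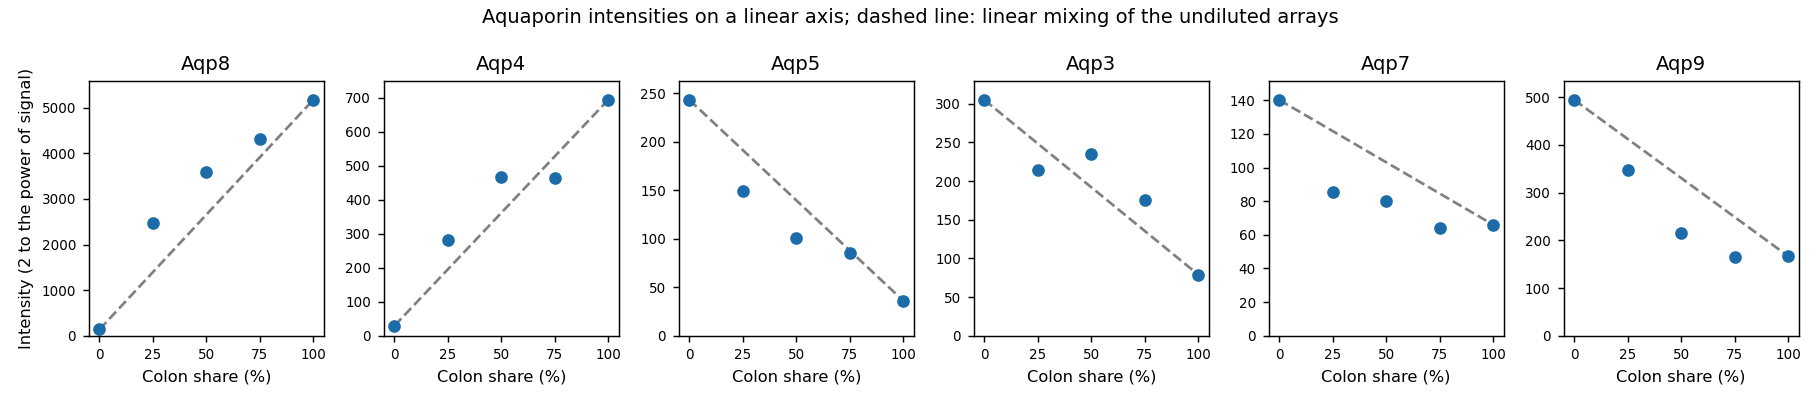
Intensity, as 2 to the power of the deposited signal (vertical axis from 0), is plotted against colon share in percent for 6 aquaporins, with 1 point per array and a dashed line for linear mixing of the undiluted arrays. Aqp8 lies above the line in all 3 mixtures, and Aqp9 and Aqp7 lie below it in all 3.

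Genes with the profile nearest to each aquaporin were found among 12386 other genes, by the root mean square difference of the 5 log2 signals after subtracting each gene's own mean. Such likeness over 5 arrays that share 2 RNAs is a description. The 3 nearest to Aqp8 were Krt20, a keratin of mature colon epithelium (difference 0.04 log2), Car4, a surface carbonic anhydrase (0.08), and 2610528A11Rik (0.10). Krt20 had 13.02 in colon and 7.86 in whole mouse. The nearest to Aqp4 were the sulfate transporter Slc26a2 (0.09), the tetraspanin Tspan8 (0.11) and Ceacam10 of the carcinoembryonic antigen family (0.12). Tspan8 had 11.72 in colon and 7.41 in whole mouse.

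Nearest to Aqp9 were Stab2, a scavenger receptor of liver sinusoids (0.05 log2), Lect2, a protein secreted by liver (0.05), and the cytochrome Cyp2f2 (0.06). Cyp2f2 had 8.31 in colon and 10.01 in whole mouse. Nearest to Aqp5 were the muscle kinase Alpk3 (0.08), pancreatic colipase Clps (0.08) and Fah, an enzyme of tyrosine breakdown (0.08). Nearest to Aqp3 were the vesicle traffic protein Rab11fip5 (0.10), the fat cell lipid carrier Fabp4 (0.13) and the adenylyl cyclase Adcy2 (0.13). Nearest to Aqp7 were Rabep1, an endosome protein, the transcription factor Foxc1 and the fetal acetylcholine receptor subunit Chrng, each with a difference of 0.03 log2. Aqp1 spanned less than 1 log2 unit and was left out.

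**Figure D4:**
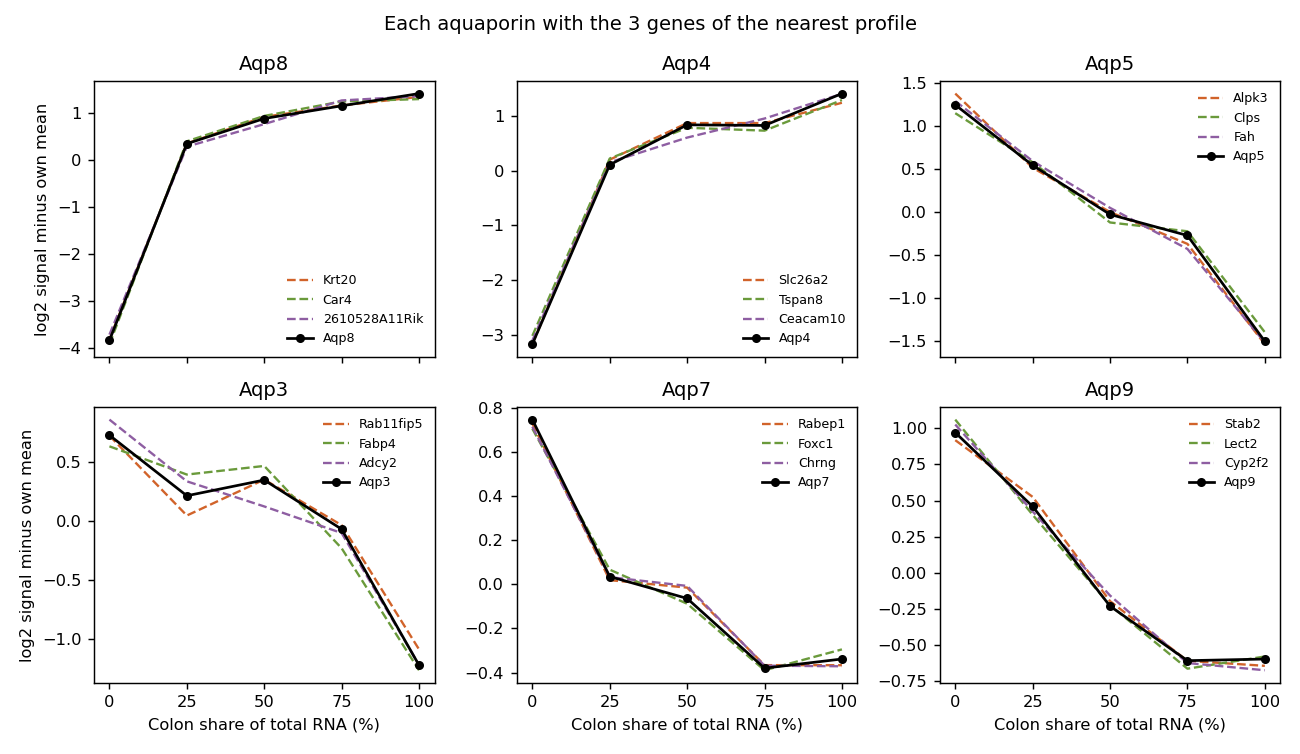
The log2 signal minus each gene's own mean over the 5 arrays (vertical axis) is plotted against colon share in percent for 6 aquaporins (black) and the 3 genes nearest to each (dashed). The root mean square differences of Krt20 and Car4 from Aqp8 are 0.04 and 0.08 log2, and the vertical scale differs between panels.

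Of the other aquaporins listed, Aqp2 and Mip were measured. Aqp2, the vasopressin-controlled channel of the collecting duct, had 7.57 in colon and 8.29 in whole mouse (slope −0.73 log2, limma adjusted p = 0.0533). Mip, the lens channel, had 4.90 in colon and 5.34 in whole mouse and did not pass (slope −0.44 log2, limma adjusted p = 0.155). In the RefSeq annotation Aqp3 and Aqp7 are neighbours on chromosome 4, and Aqp2 and Aqp5 are neighbours on chromosome 15, with no protein-coding gene between them. Aqp3 and Aqp7 both fell, whereas Aqp5 fell and Aqp2 did not pass.

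Genes of glycerol release and use, the substrate of Aqp3, Aqp7 and Aqp9, were mostly lower in colon. Of 10 measured, 6 fell and 1 rose, with a median slope of −0.74 log2. Gpd1, the cytosolic glycerol phosphate dehydrogenase, had signals of 10.56, 10.29, 9.54, 9.03 and 8.47 from 0% to 100% colon and fell by 2.17 log2 (SE 0.14, limma adjusted p = 0.00393), though the highest slope among its 4 probe sets was 0.08. Dgat2, which makes triglyceride, fell by 1.52 log2, and Lipe, the hormone-sensitive lipase, fell by 1.35. Gpam, which starts glycerolipid synthesis, had 9.48 in colon and 10.00 in whole mouse (limma adjusted p = 0.054). Gpd2, the mitochondrial partner of Gpd1, was the gene that rose, by 0.83 log2.

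Fat cell markers went both ways. Of 7, 4 fell and 1 rose, with a median slope of −1.34 log2 and medians of 8.23 in colon and 8.98 in whole mouse. Adipoq, the fat cell hormone adiponectin, fell by 1.77 log2, and Pparg, a nuclear receptor also made by colon epithelium, rose by 1.70. Their part in the falls of Aqp7 and of the glycerol genes was not tested.

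Genes of colonic salt and fluid uptake were mostly higher in colon beside Aqp8 and Aqp4. Of 12 measured, 3 rose and none fell, and 11 had a higher signal in colon, with a median slope of 2.95 log2. The widest differences between the undiluted arrays were in genes that did not pass. Car1 was higher in colon by 7.39 log2, Slc26a3 by 5.85, Car4 by 5.21 and Atp12a by 4.91 (limma adjusted p from 0.0533 to 0.174). Slc5a8, a sodium-coupled transporter of short-chain fatty acids, rose by 3.33 log2. The bicarbonate cotransporter Slc4a4 rose by 0.64 in its brightest of 4 probe sets, and the sodium channel subunit Scnn1a by 1.02. Slopes of the 4 Slc4a4 probe sets ranged from −0.14 to 0.64 log2. The subunits Scnn1b and Scnn1g were flat (slopes 0.03 and 0.06 log2, limma adjusted p = 0.860 and 0.787). Scnn1g was higher in colon by only 0.009 log2. Atp1b1, a sodium pump subunit, had 13.55 in colon and 11.87 in whole mouse (limma adjusted p = 0.0787). Slopes of its 5 probe sets ranged from 0.40 to 3.43 log2. Surface colonocyte markers had a median of 12.53 in colon and 8.30 in whole mouse, with 2 of 10 rising and none falling. Car4 and Slc26a3 were in both this list and that of salt and fluid uptake. The part of these markers in the colon signals of Aqp8 and Aqp4 was not tested.

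Of 8 measured partners that hold Aqp4 at the membrane in brain and muscle, 2 fell and none rose, with a median slope of −0.37 log2. Agrn, the matrix proteoglycan agrin, fell by 1.06 log2 and Sgcb, a sarcoglycan, fell by 1.24. Dystroglycan (Dag1) had 10.98 in colon and 11.35 in whole mouse (limma adjusted p = 0.0564). Slopes of the 4 Dag1 probe sets ranged from −0.37 to 0.16 log2. Among 8 astrocyte and ependymal markers, 3 fell and 2 rose, with medians of 5.94 in colon and 6.40 in whole mouse. Slc4a4, which rose in its brightest probe set, was also counted among the genes of colonic salt and fluid uptake. Gfap, the defining filament of astrocytes, had 5.89 in colon and 5.97 in whole mouse and did not pass. Fabp7 had 4.52 in colon and 9.75 in whole mouse and fell by 4.98 log2, and Gjb6 fell by 1.24. Slc1a3 fell by 0.60, though the highest slope among its 3 probe sets was 0.02. Aldh1l1, the other gene that rose, did so by 0.68.

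Genes of vasopressin and cAMP control, which sets the traffic of some aquaporins, had a median slope of 0.07 log2. Of 15 measured, 3 fell and 1 rose, where 14.5% of all genes fell and 9.8% rose. The kinase subunit Prkaca fell by 0.92 log2, the vesicle protein Vamp2 fell by 0.86, and the ubiquitin ligase Nedd4l rose by 1.10 in the brighter of its 2 probe sets. The chaperone Hspa8 had 12.68 in colon and 12.23 in whole mouse (limma adjusted p = 0.291). Slopes of its 4 probe sets ranged from −0.22 to 1.88 log2. Of 9 genes of the hypertonic stress response, 1 rose and 1 fell, beside the same shares of all genes, with a median slope of 0.16 log2. The kinase Sgk1 rose by 2.34 log2, the small heat shock protein Hspb8 fell by 0.98, and Hspa1b had 10.69 in colon and 8.82 in whole mouse (limma adjusted p = 0.0594).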

How the data were processed

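RNA of each mix was amplified by T7 in 2 rounds, per the labels' protocols, and measured on 1 array per mix. The deposited table holds log2 signals made with RMA, per the submitters' processing notes. The sources used here give no version of RMA. RMA corrects background, quantile-normalizes the arrays and summarises probes by median polish, which ties values between arrays in 9158 of 22626 probe sets. The 64 control probe sets were left out of the fit, and 20380 probe sets had 1 gene, 691 several and 1555 none listed. Symbols were updated through gene identifiers to RefSeq, assembly GRCm38.p6 (20351 found). Promoter windows from the same RefSeq table matched 6 of the 7 genes.

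Samples were grouped by the colon share in their titles. Log2 signal was regressed on colon share (0 to 1) with limma 3.58.1 in R 4.3.3, without a signal filter, 2-sided, with Benjamini-Hochberg adjustment over all 22626 probe sets and a threshold of 0.05. The slope is colon minus whole mouse. These p-values measure technical spread and any bend away from a straight line. The fit was tested on simulated data. Alternatives left out each array, centred arrays, filtered on a mean signal of 6, let the prior variance follow signal, used linear intensities and used other probe sets. The fit of linear intensities also let the prior variance follow mean intensity. Arrays with no replicate limit the precision of every value.

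The genes and lists were chosen with earlier results of these data known. Named genes were all members and other aquaporins, and from each pathway list up to 3 genes past the threshold with the largest slope and the brightest gene not past it, besides the 3 nearest profiles. Gpd2, Pparg, Adipoq, Gfap, Sftpd, Pdpn, Lpo, Bhlha15, Scnn1b, Scnn1g, Car4 and Slc26a3 were added after their values were seen. So were Fabp7, Gjb6, Slc1a3, Aldh1l1, Car1, Atp12a, Apoa1 and Alb.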

Additional observations from a re-analysis of the deposited data

How the results depend on the processing

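Directions of all 7 aquaporin slopes were the same under every alternative run. When any 1 array was left out, slopes ranged from −0.56 to −0.38 log2 for Aqp1, −1.89 to −0.90 for Aqp3, 1.56 to 5.09 for Aqp4, −2.73 to −2.05 for Aqp5, −1.39 to −0.58 for Aqp7, 1.39 to 6.20 for Aqp8 and −2.17 to −1.42 for Aqp9. These fits had fewer residual degrees of freedom, and the count of probe sets past the threshold ranged from 997 to 2998 in place of 4409, with 168 to 1306 rising and 829 to 1692 falling. Centring the arrays on their medians gave 3148 rising and 2325 falling, in place of 1953 and 2456, and brought Aqp4 past the threshold (4.03 log2), as did a filter at a mean signal of 6 (3.95 log2). The fit on the linear scale also let the prior variance follow mean intensity. Its slopes were 156% of the mean intensity for Aqp4 and 152% for Aqp8, both past the threshold. For Aqp7 the slope was −77.9%, which missed it. Among other probe sets, that of Aqp4 passed (1.69 log2), and those of Aqp3 (−0.44 and −1.50), Aqp7 (−0.29) and Aqp9 (−0.011) did not. The cause of these changes was not tested. No paired analysis was possible because each mix had 1 array. Signals within the poly-A controls, in Aqp5 and Aqp4 and the dim probe sets of Aqp3 and Aqp7, leave the size of a change inexact.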
